A study of Homo sapiens with 15 samples.

Results

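Transcript levels of 10 genes that sit at the output end of the ERK pathway were followed in cell lines labelled as head and neck cancer, with and without YBX1. The members were *DUSP4*, *DUSP5*, *DUSP6*, *SPRY2*, *SPRY4*, *SPRED1*, *ETV4*, *ETV5*, *PHLDA1* and *FOSL1*, taken by gene symbol, and each of the 10 was listed once among the 12995 genes of both expression tables. The data are 3′ end RNA-seq of 5 groups with 3 libraries each. OKF6 is a normal oral epithelial line labelled wild type, for which no guide construct is named. SCC15 and SCC25 are labelled as head and neck cancer lines and carried lentiviral Cas9 and inducible guide RNAs against *YBX1*, as sorted pools expanded in culture and not as single clones. SCC15 +YBX1 and SCC25 +YBX1 received no doxycycline, and SCC15 –YBX1 and SCC25 –YBX1 received 1 µg/ml to delete *YBX1*. All groups are labelled with a time of 3 days. OKF6 and SCC25 grew in serum-free keratinocyte medium that contains EGF, and SCC15 in DMEM with serum, so that line and medium cannot be told apart in any comparison with SCC15. No doxycycline-treated cells without guides were among the groups, so that the drug and the loss of YBX1 cannot be told apart either. Nothing states that the replicates were separate cultures, and p-values measure the spread between these libraries, which may be technical.

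Growth factor receptors switch on RAS, RAF and MEK, which phosphorylate the kinases ERK1 and ERK2, and active ERK induces genes that shut it down again. *DUSP4*, *DUSP5* and *DUSP6* encode phosphatases that remove the activating phosphates from ERK, the first pair in the nucleus and DUSP6 in the cytoplasm. Sprouty and SPRED proteins act further up, on RAS and RAF, while *ETV4* and *ETV5* encode ETS transcription factors, *FOSL1* the AP-1 subunit FRA1 and *PHLDA1* a pleckstrin homology-like protein, all of them induced through ERK. Transcripts of such genes are widely used as a readout of pathway output in tumours and in squamous epithelia, where EGF receptor signalling is a main input. No phosphorylated ERK was measured here.

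Levels are given as log2 CPM, the log2 of the read count scaled to library size by the authors with 0.5 reads added, so that a gene without reads stands between -3.86 and -3.15 and not at 0. Libraries held 4075290 to 6118501 counted reads and a single read was worth 0.138 to 0.226 CPM. The lines were checked against marker genes first. All 19 keratinocyte markers were lower in SCC15 than in SCC25 and passed the test described below, with a median log2 change of -7.64. They summed to 161 to 197 CPM in SCC15 +YBX1, compared to 16872 to 28168 CPM in SCC25 +YBX1 and 31314 to 41387 CPM in OKF6. *TP63*, the master regulator of the squamous lineage, had at most 1 read in any SCC15 library and at least 461 in any OKF6 or SCC25 library. The neuroendocrine genes *INSM1* and *NCAM1* had 64 to 166 and 138 to 216 reads in SCC15 +YBX1. In the OKF6 and SCC25 libraries *INSM1* had 0 reads throughout and *NCAM1* had at most 16. *TP63* and the epithelial genes *DSG3* and *GRHL2* had at most 1 read in any SCC15 +YBX1 library, while *DSP*, *KRT18* and *ITGA6* were lower than in SCC25 but present, with mean levels of 6.53, 5.76 and 3.29. The paper reports short tandem repeat profiling of all lines, classes SCC15 as mesenchymal-like and found no CDH1 protein in it. The marker values above leave in doubt whether the libraries labelled SCC15 come from an oral squamous line. SCC15 below means the libraries so labelled, and each comparison with it holds for those libraries. How far this difference in markers enters the results that follow was not tested. In bulk RNA, fewer cells that express a gene and less RNA per cell cannot be told apart.

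Together the 10 members took 115 to 142 reads in an SCC15 +YBX1 library, 4413 to 5359 in an SCC25 +YBX1 library and 3251 to 6129 in an OKF6 library, which is 20.9 to 22.4, 829 to 1114 and 733 to 1033 CPM. Each of the 10 had its lowest group means in the SCC15 groups. The plot of levels by library shows this step in the means of all of them, large for *DUSP6* and small for *SPRY2*, whose libraries overlapped between SCC15 –YBX1 and OKF6.

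The phosphatase gene *DUSP6* stood at 8.28, 7.43 and 7.88 in OKF6, at 7.03, 7.04 and 7.77 in SCC25 +YBX1 and at -0.65, -0.76 and 0.69 in SCC15 +YBX1. These last values rest on 3 to 10 reads per library, compared to 667 to 1047 reads in SCC25 +YBX1. After knockdown it stood at 7.76, 7.04 and 7.50 in SCC25 and at -0.69, 0.07 and -2.16 in SCC15. The OKF6 and SCC25 groups overlapped with each other, as did the SCC15 groups, and no library of the first set came near the second. *DUSP4*, which lies on chromosome 8, read 5.89, 5.60 and 5.88 in OKF6 and 4.12, 4.12 and 4.55 in SCC25 +YBX1, without overlap. In SCC15 +YBX1 it read -0.29, -0.40 and -0.53, which is 4 reads in each library. *DUSP5* had means of 6.50 ± 0.60 in OKF6, 6.49 ± 0.16 in SCC25 +YBX1 and 2.01 ± 0.12 in SCC15 +YBX1 (SD, n = 3), where 20 to 28 reads per library were left.

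Of the Sprouty and SPRED genes, *SPRY4* had 0 reads in all 3 SCC15 +YBX1 libraries and 1 read in 1 of 3 SCC15 –YBX1 libraries, compared to 7 to 16 reads in SCC25 +YBX1 and 11 to 31 in OKF6. With 3 reads per library as the limit that a count of 0 allows, *SPRY4* was at least 4.82-fold higher in SCC25 +YBX1 and at least 7.08-fold higher in OKF6. *SPRY2*, whose product restrains RAS activation below receptors, read 2.61, 2.15 and 2.92 in SCC25 +YBX1 and -0.29, 0.13 and 0.39 in SCC15 +YBX1. In OKF6 it read 0.70, 2.47 and 2.45, a spread that reached down towards SCC15 +YBX1 and overlapped SCC15 –YBX1, which ranged from -0.93 to 1.64. *SPRED1*, which brings neurofibromin to the membrane, kept the highest level of all members in SCC15, with a mean of 3.56 ± 0.20 compared to 5.58 ± 0.10 in SCC25 +YBX1 and 5.17 ± 0.27 in OKF6 (SD, n = 3). It was thus the member with the smallest difference between SCC15 and SCC25.

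Among the induced transcription factors, *ETV5* read 6.28, 6.77 and 6.97 in SCC25 +YBX1, 4.80, 4.90 and 4.65 in OKF6 and -0.65, -1.25 and -0.89 in SCC15 +YBX1, which is 2 or 3 reads per library. With 1569 reads over SCC25 +YBX1 and 8 over SCC15 +YBX1, the ratio of *ETV5* was 231 (exact 95% interval 117 to 536), and for OKF6 with 425 reads it was 61.1 (30.7 to 142). The 3 lines did not overlap with each other. *ETV4* had 2 reads over the 3 SCC15 +YBX1 libraries, 0 over SCC15 –YBX1, 379 over SCC25 +YBX1 and 335 over OKF6. The ratio to SCC15 +YBX1 was 223 (exact 95% interval 61.4 to 1850) for SCC25 +YBX1 and 193 (52.9 to 1597) for OKF6, where the intervals cover counting error alone. *FOSL1* had means of 6.99 ± 0.98 in OKF6, 6.93 ± 0.36 in SCC25 +YBX1 and -0.22 ± 0.78 in SCC15 +YBX1 (SD, n = 3). The OKF6 libraries spread from 5.94 to 7.89 around those of SCC25, and the SCC15 libraries held 3 to 8 reads. *PHLDA1* read 8.40, 8.47 and 8.66 in SCC25 +YBX1, 7.94, 7.61 and 8.43 in OKF6 and 1.50, 0.68 and 1.06 in SCC15 +YBX1. No SCC15 library came within reach of the others.

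To ask how the lines labelled SCC15 and SCC25 differ in these genes, SCC15 was compared to SCC25 without knockdown. All 10 members were lower in SCC15 with an adjusted p below the threshold of 0.05, in a table where 23.6% of all genes were called lower. The replicates of all 10 did not overlap either, which held in this direction for 34.1% of all genes. The members' median log2 change was -5.99, or -5.91 with *SPRY4* set at its bound, and that of all genes was -0.01. In this comparison folds are given for members with more than 3 reads in at least 1 SCC15 +YBX1 library. Of these *DUSP6*, with 3 to 10 reads there, differed most, at 183-fold lower (log2 change -7.52, 95% interval -8.41 to -6.63, adjusted p = 2.89e-07). *PHLDA1* followed at 173-fold lower (-7.43, -8.02 to -6.85, adjusted p = 3.37e-08). *FOSL1* was lower by 142-fold. *ETV5*, with 2 or 3 reads per SCC15 +YBX1 library, had a fitted log2 change of -7.60 (95% interval -8.32 to -6.88, adjusted p = 8.58e-08), further from 0 than that of *DUSP6*. The fitted log2 change of *ETV4* was -7.14. *DUSP4* was 25.4-fold lower and *DUSP5* 22.4-fold lower, while *SPRY2* was 5.59-fold lower (adjusted p = 0.00495) and *SPRED1* 4.05-fold lower (adjusted p = 4.47e-05). The 10 calls held in each of 6 fits that left out a library of these groups. Because 0.5 reads were added before the log was taken, these folds understate differences of genes with few reads.

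SCC15 was also compared to the normal line OKF6, with the same SCC15 libraries. Again all 10 members were lower and called, where 23.4% of all genes were called lower, and none overlapped, which held for 25.5% of all genes. *DUSP6* was 275-fold lower (log2 change -8.10, 95% interval -9.0 to -7.21, adjusted p = 1.54e-07) and *DUSP4* 73.2-fold lower (-6.19, -6.90 to -5.49, adjusted p = 1.88e-07). *FOSL1*, *PHLDA1* and *DUSP5* were 148-fold, 121-fold and 22.5-fold lower, and the fitted log2 change of *ETV5* was -5.71. *SPRED1* was 3.05-fold lower (-1.61, -2.12 to -1.10, adjusted p = 0.000178). *SPRY2* carried the weakest call, at 3.47-fold lower (-1.80, -3.06 to -0.53, adjusted p = 0.0226). That call was lost without OKF6 replicate 2 (adjusted p = 0.0585), OKF6 replicate 3 (0.0653), SCC15 +YBX1 replicate 1 (0.0728) or SCC15 +YBX1 replicate 2 (0.0558), and when SCC15 and OKF6 alone were fitted (0.0561).

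SCC25 was compared to OKF6 in turn, where 20% of the members and 30.2% of all genes were called. Of the 10 members, 1 was called higher and 1 lower, where 18.9% of all genes were called higher and 11.3% lower. *ETV5* was 3.71-fold higher in SCC25 (log2 change 1.89, 95% interval 1.17 to 2.61, adjusted p = 0.00169) and *DUSP4* 2.88-fold lower (-1.52, -2.23 to -0.82, adjusted p = 0.00498). Both calls held in each of 6 fits without a library. The remaining 8 did not pass, with intervals of -0.65 to 0.64 for *DUSP5*, -1.48 to 0.31 for *DUSP6*, -0.58 to 1.95 for *SPRY2*, -1.72 to 0.81 for *SPRY4*, -0.11 to 0.92 for *SPRED1*, -0.94 to 1.53 for *ETV4*, -0.07 to 1.11 for *PHLDA1* and -1.18 to 1.06 for *FOSL1*. An interval that includes 0 does not show equal levels, and those of *SPRY2*, *SPRY4* and *ETV4* were the widest. Replicates did not overlap for *ETV5*, *DUSP4* and also *SPRED1* (log2 change 0.41, adjusted p = 0.209), a property of 43.3% of all genes here. The plot of differences between lines shows both SCC15 comparisons far to the left and the SCC25 comparison around 0.

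Scaling moved the balance of all genes but not the members in the SCC15 comparisons. With library medians set equal, the median log2 change of all genes between SCC15 and SCC25 moved from -0.01 to 0.14, and with quantiles set equal to 0.17. The number of genes called higher and lower turned from 2602 and 3070 to 3045 and 2685, or 3430 and 2767. All 10 members stayed lower and called under both. Against OKF6 the split for SCC15 moved from 3497 higher and 3037 lower to 3981 and 2662 with medians set equal, and the one for SCC25 from 2450 and 1473 to 2006 and 1837 with quantiles set equal, with 10 and 2 members called as before. The median of all genes moved from 0.10 to 0.26 and from 0.13 to -0.05 in these. The uncalled difference of *DUSP5* between SCC25 and OKF6, near 0, changed sign with medians set equal.

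Relatives of the members were less uniform. In these and the following lists, log2 changes of genes with 3 or fewer reads per library on one side are fitted values that depend on the 0.5 reads added. The counts of calls in these lists stand against 43.6% of all genes called in either direction in SCC15 vs SCC25, 50.3% in SCC15 vs OKF6 and 30.2% in SCC25 vs OKF6. In that order, the relatives had 56.2%, 50% and 37.5% called, the AP-1 and immediate-early genes 68%, 76% and 24%, and the other output genes 80%, 86.7% and 40%. The cascade had 38.2%, 61.8% and 29.4% called and the receptors and ligands 70.6%, 94.1% and 47.1%. Whether any list differs from all genes in this share was not tested. Of 16 measured phosphatase, Sprouty and related genes outside the 10, 7 were lower in SCC15 than in SCC25, 2 higher and 7 did not pass (median log2 change -1.06). *DUSP10*, a phosphatase that prefers p38 and JNK, was lower (-4.36, adjusted p = 0.00216), as was *PHLDA2* (-3.93, adjusted p = 5.94e-06). *DUSP9*, a cytoplasmic ERK phosphatase of the same subfamily as *DUSP6*, went the other way, at 747 to 838 reads in SCC15 +YBX1, 62 to 150 in SCC25 +YBX1 and 2 to 8 in OKF6. Its log2 change was 2.84 (adjusted p = 0.00104) against SCC25 and 7.49 (adjusted p = 7.9e-07) against OKF6. *DUSP8* was also higher in SCC15 (2.05, adjusted p = 0.0379). Against OKF6, 6 of the 16 were lower in SCC15 and 2 higher, with *DUSP10* (-4.93) and *DUSP7* (-3.69) lowest and *DUSP9* and *DUSP8* (2.47) highest. In SCC25 compared to OKF6, 4 were higher, among them *DUSP9* (4.64) and *DUSP2* (2.55), and 2 lower, *DUSP7* (-1.63) and *SPRED2* (-1.59).

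AP-1 and immediate-early genes, the fast transcriptional response to ERK and other signals, fell in 15 of 25 measured cases between SCC25 and SCC15 and rose in 2, with a median log2 change of -1.75. *KLF4*, a zinc finger factor of differentiating epithelia, changed by -4.46 (adjusted p = 1.01e-05), and *EGR4* had 0 reads in SCC15 and 10 to 18 in SCC25, which is at least 5.66-fold higher in SCC25. *JUN*, the partner of FRA1, rose by 1.03 (adjusted p = 0.0339) and *KLF2* by 2.98 (adjusted p = 0.00543). Against OKF6, 16 were lower in SCC15, with *ZFP36* (-6.32) and *FOS* (-5.85) furthest, and 3 higher, with *ATF3* (4.02) and *KLF2*, which had 0 reads in OKF6 and was at least 3.54-fold higher. SCC25 and OKF6 differed in 3 higher genes, including *JUNB* (1.40) and *EGR4*, at least 4.88-fold higher, and 3 lower ones, including *ZFP36* (-4.03) and *KLF6* (-1.80). Other genes of MEK-ERK output signatures were lower in SCC15 than in SCC25 in 11 of 15 cases and higher in 1 (median -3.51). *NT5E*, the ecto-5′-nucleotidase CD73, changed by -9.06 and the cytokine gene *IL1A* by -8.89, and the exception was the phosphate transporter gene *SLC20A1* (1.05). Against OKF6 the counts were 11 lower and 2 higher in SCC15, with *TNC*, at least 87.3-fold higher in OKF6, and *IL1A* (-9.59) on one side and *EPHA4* (5.96) and *VGF* (2.83) on the other. In SCC25, 5 were higher than in OKF6, led by *EPHA4* (4.04) and the cyclin D1 gene *CCND1* (2.99), and *SLC20A1* was lower (-1.62).

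The cascade itself was followed next. Of 34 measured genes from RAS to the ERK-activated kinases, 12 were lower in SCC15 than in SCC25, 1 higher and 21 not called (median -0.44). The scaffold gene *CNKSR1* (-3.93) and the RAS relative *RRAS* (-3.78) were lowest, and *MRAS*, another RAS relative, was higher (2.59, adjusted p = 0.0433). Against OKF6, 18 of the 34 were lower in SCC15, led by *RRAS* (-5.29) and *CNKSR1* (-3.46), and 3 were higher, among them *MRAS* (6.29) and *PEBP1* (1.01). SCC25 had 4 higher than OKF6, including *MRAS* (3.71) and *RPS6KA2* (1.91), and 6 lower, including *GAB1* (-1.65) and *MKNK2* (-1.60). Upstream of the cascade, 10 of 17 measured receptor and ligand genes were lower in SCC15 than in SCC25 and 2 higher (median -1.97). *FGFBP1*, which releases FGFs from the matrix, changed by -10.95 and the ligand gene *NRG1* by -10.12, while *KIT* had 0 reads in SCC25 and OKF6 and was at least 22.4-fold and 22.7-fold higher in SCC15. *FGFR3* was higher too (1.54, adjusted p = 0.022). The EGF receptor gene *EGFR*, looked at outside the naming rule after its values were seen, had 27 to 44 reads in SCC15 +YBX1 and 494 to 624 in SCC25 +YBX1. Against OKF6, 11 of the 17 were lower in SCC15, including *FGFBP1* (-12.31) and the ligand gene *EREG* (-8.47), and 5 higher, including *FGFR1* (5.43). SCC25 had 5 higher than OKF6, including *FGFR1* (5.28) and *FGFR4* (4.93), and 3 lower, including *EREG* (-3.17) and *FGFR3* (-2.36).

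The marker lists moved with these comparisons. Between SCC15 and SCC25 the keratinocyte list was led by *KRT6A* (-11.75) and *PKP1* (-11.71), and against OKF6 by *KRT6A* (-12.79) and *KRT5* (-11.92), with 18 of 19 called lower. Of 9 mesenchymal markers 4 were higher in SCC15 than in SCC25, including *ZEB1* (3.55) and *LUM* (3.25), and 4 lower, including *FN1* (-6.79) and *SNAI2* (-1.99). Of 8 markers of other cell types 4 were higher, including *INSM1*, at least 31.2-fold, and *NCAM1* (5.95), and 2 lower, *CD68* (-6.28) and *TUBB3* (-0.72). Against OKF6, 5 mesenchymal markers were higher in SCC15, including *CDH2*, at least 78.4-fold, and *ZEB1* (7.07), and 2 lower, *FN1* (-5.81) and *SNAI2* (-2.63), while 6 other markers were higher, including *INSM1*, at least 31.6-fold, and *NCAM1* (6.64), and 2 lower, *CD68* (-5.13) and *TUBB3* (-0.76). In SCC25 compared to OKF6, 3 keratinocyte markers were lower, including *DSG3* (-2.84) and *DSP* (-0.90), 2 were higher, *KRT8* (2.97) and *KRT18* (1.15), 3 mesenchymal markers were higher, including *CDH2*, at least 18.9-fold, and *ZEB1* (3.53), and 0 of 8 other markers were called (limma, 1 at an unadjusted p under 0.05). Their part in the members' results was not tested.

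To ask whether these genes move with YBX1, the knockdown was examined within each line, beginning with its target. *YBX1* read 6.74, 6.31 and 6.62 in SCC25 +YBX1 and 5.26, 4.70 and 3.65 in SCC25 –YBX1, and 5.11, 5.56 and 6.00 in SCC15 +YBX1 and 3.36, 3.71 and 3.13 in SCC15 –YBX1. The groups did not overlap in either line and every library bore out its label. The log2 change was -2.01 in SCC25 (95% interval -2.76 to -1.27, adjusted p = 0.29) and -2.15 in SCC15 (-2.90 to -1.41, adjusted p = 0.326). Pooled over both lines it was -2.08 (-2.61 to -1.56, adjusted p = 0.0103), the single gene called, or 0.0077% of all genes. This call was lost without SCC15 +YBX1 replicate 2 (adjusted p = 0.0621) or replicate 3 (0.0601), SCC15 –YBX1 replicate 1 (0.0527) or replicate 3 (0.0581), and SCC25 +YBX1 replicate 1 (0.0711) or replicate 3 (0.063). Without knockdown, *YBX1* itself stood at 7.76 ± 0.88 in OKF6, 6.55 ± 0.22 in SCC25 and 5.55 ± 0.44 in SCC15 (SD, n = 3). It was lower in SCC15 than in OKF6 by limma (-2.21, adjusted p = 0.000707), a call kept in each of 6 fits without a library. The lower level in SCC25 than in OKF6 (-1.21, adjusted p = 0.0375) lost its call without OKF6 replicate 2 (0.105) or 3 (0.127) and without SCC25 +YBX1 replicate 1 (0.0731), 2 (0.125) or 3 (0.0872). SCC15 and SCC25 did not pass (-0.999, adjusted p = 0.0581), although they did in some other fits (0.00375 to 0.0487).

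In SCC25, 0 of 10 members passed after knockdown by limma, and 0 also at an unadjusted p under 0.05 and with voom weights, where 0% of all genes were called and 3.09% had an unadjusted p that low. *YBX1* itself, at -2.01, did not pass this test either, so 0 of 10 does not show that the members were unchanged. Estimates ran from -1.32 for *SPRY4* to 0.25 for *PHLDA1*. *PHLDA1* read 8.67, 8.73 and 8.87 in SCC25 –YBX1, each above the +YBX1 libraries at 8.40, 8.47 and 8.66, and lack of overlap held for 7.31% of all genes. The difference was 0.25 (95% interval -0.28 to 0.77). *SPRY4* read 0.13, -1.78 and 1.48 after knockdown, compared to 1.63, 0.56 and 1.59, and was lower in each of 3 same-number pairs. The middle library, SCC25 –YBX1 replicate 2, held 1 read, and without it the change was -0.46. *DUSP4* turned with the same library, from -0.46 to 0.22 without it, where it read 4.67, 2.47 and 4.29. That library was the lowest of its group for 7 of 10 members and its 10 most abundant genes took 16.2% of the reads, the largest share of the 15 libraries. *FOSL1* was lower in 3 of 3 pairs, by -0.17, -0.88 and -0.04, and its interval of -1.48 to 0.76 left the direction unresolved. *SPRED1* had the narrowest interval of the members in this line (-0.42 to 0.43), followed by *PHLDA1* and *DUSP5* (-0.57 to 0.55). The changes of *DUSP6* (0.15, -0.96 to 1.27), *ETV5* (-0.07, -1.13 to 0.99), *ETV4* (-0.48, -1.52 to 0.56) and *SPRY2* (-0.42, -1.65 to 0.82) had wider intervals around 0.

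In SCC15, 0 of 10 members passed by limma as well, where 0% of all genes were called. The same limit holds, as *YBX1* itself, at -2.15, did not pass in this line. At an unadjusted p under 0.05 there were 3 members with limma and 0 with voom weights, and 2.32% of all genes lay below this value. *DUSP4* read -0.29, -0.40 and -0.53 in SCC15 +YBX1 and 1.27, 1.12 and 1.3 in SCC15 –YBX1, that is 12 reads in all compared to 46. Its libraries did not overlap between the groups, which by itself makes it higher in 3 of 3 pairs. The change was 1.64 (95% interval 0.61 to 2.66, unadjusted p = 0.00417, adjusted p = 1). *PHLDA1* read 1.64, 1.57 and 2.37 after knockdown and was higher by 0.78 (0.26 to 1.31, unadjusted p = 0.0067, adjusted p = 1), from 37 reads in all to 74. *ETV4* had the third unadjusted p (0.0238), on 2 reads compared to 0, both within the limit of 3 reads per library, so that no fold is given. *DUSP4* and *PHLDA1* did not overlap between the groups, as held for 7.04% of all genes, whereas libraries of both groups had 0 reads of *ETV4*. With 3 reads added in place of 0.5, 2 members had an unadjusted p under 0.05. *DUSP6* spread from -2.16 to 0.07 after knockdown and *SPRY2* from -0.93 to 1.64, and neither differed beyond that spread. The changes of *DUSP5* (-0.22, -0.78 to 0.34), *SPRED1* (-0.01, -0.43 to 0.42) and *ETV5* (0.07, -0.99 to 1.13) did not pass either. *FOSL1* was lower in 3 of 3 pairs, by -1.03, -0.07 and -1.26 (95% interval -1.91 to 0.33). This rests on 8, 4 and 3 reads compared to 5, 4 and 1, so that the second pair held equal reads.

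Over both lines pooled, 0 of 10 members passed by limma. Unadjusted p-values under 0.05 were found for 2 members with limma and 1 with voom weights or with 3 reads added, compared to 2.15% of all genes by limma. The limma values belonged to *PHLDA1* (0.51, 95% interval 0.14 to 0.89, unadjusted p = 0.0104) and *ETV4*, for which no pooled change is given because SCC15 enters it with 2 reads compared to 0. *PHLDA1* was higher in 6 of 6 pairs, which follows from its lack of overlap within each line. The response of the lines was compared directly as the change in SCC25 minus that in SCC15. Here 0% of all genes and 0 members were called by limma, and 1 member had an unadjusted p under 0.05 with limma as with voom weights, where 2.26% of all genes did. It was *DUSP4* (-2.09, 95% interval -3.54 to -0.64, unadjusted p = 0.008, adjusted p = 1), or -1.42 without SCC25 –YBX1 replicate 2. For the relatives, the AP-1 and immediate-early genes, the output genes, the cascade and the receptors and ligands, 0 of 16, 25, 15, 34 and 17 genes were called in either line, with 1 relative and 1 immediate-early gene in SCC15 at an unadjusted p under 0.05 and 0 in SCC25. Of the keratinocyte, mesenchymal and other markers, 0 of 19, 9 and 8 were called by limma in either line, with 1 keratinocyte marker in SCC15 and 1 mesenchymal marker in SCC25 at an unadjusted p under 0.05.

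Genes whose pattern was most like that of *DUSP6* were sought over the 15 libraries among 6358 genes above the median level. Pearson r was highest for *ANXA1* (0.994), *ITGA6* (0.994), *DUSP5* (0.993), *S100A16* (0.992) and *ALDH1A3* (0.991), and lowest for *BAZ1B* (-0.977), *DLX2* (-0.975) and *AP1S2* (-0.971). The points fall into the 6 SCC15 libraries and the other 9, and the r describes that step. Over the 9 libraries of OKF6 and SCC25 alone, r with *DUSP6* was 0.67 for *DUSP5*, 0.75 for *DUSP4* and 0.53 for *SPRY4*, 0.10 for *FOSL1*, and -0.13 to -0.64 for *SPRED1*, *PHLDA1*, *SPRY2*, *ETV5* and *ETV4*. These r have no interval, so whether the members share a pattern outside SCC15 was not tested. *ETV5* had a higher level in SCC25 than in OKF6. Over all 15 libraries *PHLDA1* ranked 115 (r 0.969) and *SPRED1* 242 (r 0.951) from the top among the 6358 genes. *DUSP4*, *SPRY2*, *SPRY4*, *ETV4*, *ETV5* and *FOSL1* were not above the median level and so not ranked. Their r ran from 0.817 for *SPRY2* to 0.976 for *ETV4* and 0.979 for *FOSL1*.

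Promoters are shown for 3 members, the cytoplasmic phosphatase gene *DUSP6*, *PHLDA1* with one of the widest gaps between SCC15 and SCC25, and *SPRY2* with one of the narrowest. RefSeq promoter entries (GRCh38.p14) were matched for 5 of the 10 members with 7 entries, namely *DUSP6*, *PHLDA1*, *SPRY2*, *SPRY4* and *SPRED1*. The 250 bases before each start were searched on both strands for the ETS core CCGGAA, the AP-1 motif TGANTCA, the CRE motif TGACGTCA and the CArG box. Each promoter is given 5′ to 3′ on the strand of its gene, with matches to the ETS core in capitals, which for *PHLDA1* lies on the opposite strand.
DUSP6, chr12:89352502-89352751, minus strand: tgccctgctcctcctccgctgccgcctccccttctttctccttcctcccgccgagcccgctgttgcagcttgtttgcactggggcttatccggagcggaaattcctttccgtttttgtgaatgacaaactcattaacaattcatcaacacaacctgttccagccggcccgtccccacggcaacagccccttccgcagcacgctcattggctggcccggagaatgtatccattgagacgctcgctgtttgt
PHLDA1, chr12:76031777-76032026, minus strand: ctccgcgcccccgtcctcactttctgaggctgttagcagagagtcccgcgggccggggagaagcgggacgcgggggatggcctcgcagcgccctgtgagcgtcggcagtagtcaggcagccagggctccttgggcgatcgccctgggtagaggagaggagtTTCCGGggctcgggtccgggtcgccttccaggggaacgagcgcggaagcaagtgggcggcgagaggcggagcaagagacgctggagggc
SPRY2, chr13:80341127-80341376, minus strand: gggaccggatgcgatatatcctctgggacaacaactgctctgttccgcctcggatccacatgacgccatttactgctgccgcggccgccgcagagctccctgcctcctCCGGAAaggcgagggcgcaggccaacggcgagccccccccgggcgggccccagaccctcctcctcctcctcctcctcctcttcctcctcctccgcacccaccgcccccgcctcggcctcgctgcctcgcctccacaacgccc
An ETS core was found once in *PHLDA1*, its first base 89 bases before the start, and once in the first of 3 *SPRY2* entries, 142 bases before it. The other 5 entries held none, and 14.5% of all 35116 promoter windows hold at least 1. The AP-1, CRE and CArG motifs, present in 6.57%, 1.65% and 1.16% of the windows, were found in none of the 7. A match is a description of letters and no match says only that these letters are not in these windows.

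The genes lie on different chromosomes, save *DUSP6* (chromosome 12, 89347235 to 89352501) and *PHLDA1* (chromosome 12, 76025447 to 76031776; hg38, GENCODE 44). *ETV4* (chromosome 17, 43527844 to 43579620) overlaps *DHX8* on the opposite strand, the only overlapping gene that was also in the tables. Whether reads were counted by strand is not given in the sources used here, and low counts of *ETV4* and *DHX8* cannot be assigned with certainty where they overlap.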

How the data were processed

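RNA was sequenced from the 3′ end in 15 libraries. Per the submitters' processing notes, reads were trimmed with Cutadapt, aligned to hg38 with HISAT2 and counted with featureCounts, and limma was applied. The deposited tables hold log2 CPM values that the authors computed with 0.5 reads added. From these, whole reads came back for 100% of values (tolerance 0.01 reads). The 6 libraries in both tables differed by at most 5e-08, and no 2 replicates agreed within counting noise (chi-square per degree of freedom 3.99 to 80.8).

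Groups were compared with limma 3.58.1 (R 4.3.3, lmFit and eBayes with trend) on the log2 CPM, with all groups of a table in the fit, two-sided tests and Benjamini-Hochberg adjustment over 12995 genes, threshold 0.05. The model was run on simulated counts for SCC15 vs SCC25 and the SCC25 knockdown only, with changes planted in genes of higher read count only. The simulation gave every gene the same fixed spread between replicates, unlike these libraries. It did not cover groups with as few reads as most members have in SCC15. It therefore does not show how often changes are found in these data. Same-numbered libraries of a line deviated together to unlike degrees (r 0.135, 0.47 and 0.425 in SCC25, 0.498, 0.312 and 0.117 in SCC15). The numbers were used as pairs only to show differences within a line, a choice that rests on every r being over 0.1. Apart from the replicate block, the fits held no pairs. In SCC15, replicates 2 and 3 had a higher r with another number (0.345 and 0.175). Between lines r was -0.198 to 0.264, so that an r over 0.1 does not show that libraries were paired. The members and lists were chosen with earlier results of these data known. By the rule for names, all members, *YBX1* and, per list, the 2 called genes without overlap that changed most in each direction are named, and for likeness to *DUSP6* the 5 highest and 3 lowest r. The marker check of SCC15 also names *TP63*, *DSG3*, *GRHL2*, *DSP*, *KRT18* and *ITGA6*, which were picked by hand and not by this rule for SCC15. Floors (3 reads per library) and exact 95% intervals cover counting error only. Alternatives were the replicate block, other scalings, voom weights, 3 reads added, a filter, the compared groups alone and each library left out. Loci are from GENCODE 44 and promoters from RefSeq.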

Additional observations from a re-analysis of the deposited data

How the results depend on the processing

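Of 496 log2 changes of the members and *YBX1* recomputed under the planned settings other than leaving out a library, 481 kept direction and side of the threshold, 10 reversed, 2 lost their call and 3 gained one. All 47 counts of members called stayed within 1.5 times. The lost calls were *YBX1* in SCC25 vs OKF6 with those groups fitted alone (adjusted p = 0.067) and *SPRY2* in SCC15 vs OKF6 with those groups fitted alone (adjusted p = 0.0561), and without 1 library the change of *SPRY2* ran from -2.38 to -1.50. The gained calls were *YBX1* in SCC15 vs SCC25 with the replicate block (0.0358), those groups alone (0.00375) and 3 reads added (0.0487). The cause was not tested. With the replicate block, members called were 10, 10 and 2 in the line comparisons and 0 in each knockdown comparison, and the pooled adjusted p of *YBX1* was 0.0371. The block changed no member's call.

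The reversed values were all close to 0 under the setting that reversed them, and none was called. With medians set equal they were 0.0039 for *DUSP5* in SCC25 vs OKF6, -0.0040 for *SPRED1* in the SCC25 knockdown and -0.016 for *ETV5* pooled. With quantiles set equal they were 0.00074 for *DUSP5* in the SCC25 knockdown, and for *ETV5* -0.0078 in SCC15 and -0.032 pooled. With 3 reads added they were -0.031 for *SPRY4* in SCC15, -0.013 for *ETV5* pooled and -0.023 for *ETV4* between the lines' responses. The main estimates were 0.36 for *SPRY4* in SCC15 and 0.74 for *ETV4* between the lines' responses. The size of these changes thus depended on the number of reads added. With voom weights *SPRED1* pooled was 0.0014.

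Leaving out 1 library turned the sign of uncalled changes over these ranges. In SCC25 vs OKF6 they were -0.21 to 0.34 for *DUSP5*, -0.14 to 0.67 for *ETV4* and -0.59 to 0.38 for *FOSL1*. In the SCC25 knockdown they were -0.89 to 0.22 for *DUSP4*, -0.20 to 0.19 for *DUSP5*, -0.0073 to 0.40 for *DUSP6*, -0.054 to 0.099 for *SPRED1* and -0.38 to 0.097 for *ETV5*. In the SCC15 knockdown they were -0.32 to 0.97 for *SPRY2*, -0.22 to 0.68 for *SPRY4*, -0.10 to 0.11 for *SPRED1* and -0.38 to 0.72 for *ETV5*. Pooled they were -0.51 to 0.041 for *DUSP6*, -0.37 to 0.28 for *SPRY2*, -0.048 to 0.059 for *SPRED1* and -0.23 to 0.33 for *ETV5*. Between the lines' responses they were -0.11 to 0.11 for *SPRED1*, -0.79 to 0.31 for *ETV5*, -0.15 to 0.76 for *FOSL1* and -0.22 to 0.58 for *YBX1*. With few reads per member in SCC15, changes of *DUSP6*, *FOSL1*, *ETV4*, *ETV5* and *SPRY4* within that line were not resolvable at this depth.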
